A study of Drosophila melanogaster with 60 samples.

Results

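Pleiohomeotic (Pho) was mapped by chromatin immunoprecipitation and sequencing (ChIP-seq) in mesodermal nuclei of Drosophila melanogaster embryos, and this account concerns the Pho regions that lie inside chromatin carrying the histone mark H3K27me3. The 3 Pho control peak lists were intersected base by base, which gave 8908 regions present in all 3 lists. A region was taken as lying in H3K27me3 chromatin where it overlapped, by at least 1 bp, an H3K27me3 peak in at least 2 of the 3 H3K27me3 control lists. This held for 1743 regions, and the other 7165 shared Pho regions served for comparison. The regions were thus selected on the Pho and H3K27me3 peaks of the control lists, and those values are given as description.

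Pho is a sequence-specific DNA-binding protein of the Polycomb group, a set of repressors that keep developmental genes off in the cells where they are not needed. It binds at Polycomb response elements and helps to bring Polycomb repressive complexes to them. One of these complexes methylates lysine 27 of histone H3 to give H3K27me3, which a second complex can bind, and such chromatin can spread over whole gene clusters. The Hox genes, which set segment identity along the body axis, are the classic targets in fly embryos. H3K27ac is acetylation of the same lysine and is found at active promoters and enhancers, so one histone tail cannot carry both marks.

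All nuclei were isolated by INTACT, a purification of nuclei that carry an envelope tag expressed in 1 tissue only, and ThruPLEX amplification followed. Pho (antibody Rb-Pho 2-382), H3K27me3 (ab6002) and H3K27ac (ab4729) were each mapped in 3 control and 3 degradation libraries from stage 14 to 17 (late) mesoderm. Controls had the genotype twi-INTACT; UAS-Nslmb,GFP-Ubx and the degradation group twi-INTACT, Mef2>Nslmb,GFP-Ubx, in which Mef2-driven Nslmb, a degrader directed at GFP, acts on GFP-tagged Ultrabithorax (Ubx), a Hox transcription factor. Both groups thus carry GFP-Ubx and the degrader construct, and the controls lack only its driver. H3K27me3 and H3K27ac were also mapped in twi-INTACT mesoderm without these alleles, with 2 libraries each from stages 10 to 13 (early) and 14 to 17. Ubx was mapped with a guinea pig antibody in 3 early and 2 late twi-INTACT mesoderm libraries and in 2 early and 2 late neuronal libraries from elav>INTACT embryos. The twi and elav drivers set which nuclei were captured, and Mef2 is expressed in muscle, so nuclei captured through twi without Mef2 activity would keep GFP-Ubx. The labels do not say whether replicates came from separate embryo collections, so p-values measure only the spread between these samples.

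The 6 Pho lists held 45668 to 61534 peaks over 11.9 to 18.5 Mb on the 7 chromosomes used, and the 6 H3K27me3 lists of the same genotypes held 8544 to 56113 peaks over 8.58 to 21.4 Mb. Read depths were not in the peak lists, so the depth behind each list is unknown and no counting interval can be given for a peak. Peak names inside the early mesoderm Ubx list R2 and the H3K27ac control list 3 carry another replicate's name, and the labels were followed. The labelled tissue was checked by H3K27ac peaks within 1 kb of the starts of marker genes in the 3 control lists. Of 12 muscle and mesoderm markers, 8, 10 and 7 had such a peak, against 6, 6 and 5 of 7 neuronal markers, while 57.9% to 78.5% of all 13968 genes did. Neuronal markers were thus marked at least as often as muscle markers, and the part of other cell types in the results below was not tested.

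The sequences that follow are the forward strand of dm6 at 4 of the regions, read from the RefSeq release, all from the Hox clusters on chromosome 3R. They are shown because they hold the core of the Pho recognition motif, GCCAT, which is in capitals here in either orientation (GCCAT or ATGGC). The abd-A region had a Pho peak in 2 degradation lists and the others in all 3. Pho values for these regions are given further on.
Dfd, chr3R:6791578-6791772: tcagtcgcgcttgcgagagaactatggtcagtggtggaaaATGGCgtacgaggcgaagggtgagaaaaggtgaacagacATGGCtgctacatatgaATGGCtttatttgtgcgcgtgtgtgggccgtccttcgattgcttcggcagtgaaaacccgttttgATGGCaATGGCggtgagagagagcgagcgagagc
Intergenic between Ubx and abd-A, chr3R:16764036-16764326: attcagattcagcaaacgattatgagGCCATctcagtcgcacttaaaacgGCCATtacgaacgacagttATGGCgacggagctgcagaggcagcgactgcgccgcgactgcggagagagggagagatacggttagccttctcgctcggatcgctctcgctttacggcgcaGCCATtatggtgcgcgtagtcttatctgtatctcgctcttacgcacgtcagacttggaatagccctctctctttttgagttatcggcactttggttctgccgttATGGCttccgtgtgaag
Abd-B region 4, chr3R:16970082-16970365: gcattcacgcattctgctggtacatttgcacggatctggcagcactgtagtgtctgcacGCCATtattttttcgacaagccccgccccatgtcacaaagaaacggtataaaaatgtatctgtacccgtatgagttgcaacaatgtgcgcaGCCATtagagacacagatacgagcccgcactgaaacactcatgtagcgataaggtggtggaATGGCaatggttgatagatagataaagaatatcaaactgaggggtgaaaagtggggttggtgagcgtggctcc
abd-A, chr3R:16811854-16811914: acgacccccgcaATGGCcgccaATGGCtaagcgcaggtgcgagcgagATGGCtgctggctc
The Dfd region lies 161 bp from a transcription start site (TSS) and holds 5 matches, as does the intergenic region, whereas the Abd-B region and the abd-A region hold 3 each and lie in introns.

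Of the 1743 regions, 1230 overlapped H3K27me3 peaks in 2 control lists and 513 in all 3. H3K27me3 control list 2 covered 95.8% of them, list 3 covered 85.3% and list 1 covered 48.3%. List 1 held the fewest peaks of the 3 (12974) and covered 8.58 Mb, against 21.4 and 13.1 Mb. With list 2 left out the rule gave 586 regions, and with list 3 left out 769, so the number depends on these lists. Within the set, 1073 regions (61.6%) lay wholly inside H3K27me3 peaks in at least 2 lists. At the threshold, 81 regions had under 10 bp of overlap in the second list. The closest to the limit were regions at ush, dbf and Idgf3, each with 1 bp. Just outside it, regions at Snoo, CG40472 and CG15506 touched a peak of a second list without sharing a base, and 382 of the other regions lay within 100 bp of one.

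The regions in H3K27me3 chromatin were wider than the other shared Pho regions, with a median of 125 bp (quartiles 63 and 221.5) against 90 bp, and they summed to 350 kb. All 36 regions over 1 kb among the 8908 belonged to them, the widest being 4982 bp, and 25 of these 36 were at least 50% repeat-masked. Repeat-masked regions by the same measure made up 273 of the 1743 (15.7%), against 392 of 7165 (5.47%). Where reads from repeats can be placed at several copies, peaks there are less certain, so results are also given for the 1470 regions under 50% repeat and the 6773 comparable others. A peak in at least 30 of all 35 lists, whatever the antibody, was found at 104 regions, 75 of them repeat-masked, and at 2 of the other regions.

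Most of the regions lay away from promoters. Intergenic positions held 882 (50.6%), introns 471 (27.02%), positions within 1 kb of a TSS 210 (12.05%), coding exons 175 (10.0%) and untranslated regions 5. The other shared Pho regions lay within 1 kb of a TSS in 25.9% of cases and in coding exons in 25.2%. The median distance to the nearest TSS was 8934 bp against 3013 bp. By chromosome, regions in H3K27me3 chromatin made up 15.5% of shared Pho regions on 3R and 16.9% on 2L, but 35.8% on X, 38.3% on 4 and 41.7% on Y. On Y 70 of the 110 regions were repeat-masked, and on X 79 of 190.

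Bases covered by H3K27me3 peaks in at least 2 control lists were joined into domains where gaps were at most 1 kb. This gave 9437 domains over 14.5 Mb, of which 1188 held a Pho region. The domains that held one had a median length of 1535 bp, against 228 bp for those that did not, and of the 263 domains over 10 kb, 168 (63.9%) held at least 1. Shared Pho regions numbered 132 per Mb inside the domains and 56.8 per Mb outside. A domain of 89.5 kb over Ubx held 11 regions, and one of 67.1 kb around Dll, the selector gene of limb outgrowth, also held 11. The domain over MSAmiP, which lies between abd-A and Abd-B, spanned 50.7 kb with 10 regions, and the one over inv and en, paired homeobox genes of the posterior compartment, spanned 103 kb with 9. Domains of 63.9 kb around dve, 52.8 kb over toe and eyg, and 18.2 kb over cad held 7 each. The domain with most regions, 12 in 17.8 kb of the X chromosome, overlapped no protein-coding gene, and 6 of its regions were repeat-masked.

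All 8 Hox genes held a region in H3K27me3 chromatin between 2 kb upstream of the gene's start and its end, against 693 of 13968 protein-coding genes (4.96%). The median length of this span was 32.6 kb for the Hox genes and 4.16 kb over all genes, and the part of length was not tested. Of 32 shared Pho regions at the Hox genes, 31 were in H3K27me3 chromatin. Ubx held 11, Antp 6, Abd-B 4, pb 3, Dfd, abd-A and lab 2 each, and Scr 1. These 31 regions were 9 to 399 bp wide (median 106), and 23 lay in introns, 5 within 1 kb of a TSS and 3 in coding exons. Pho fold enrichment over each list's own background, the authors' value for the peak at a region, was low throughout. At the 31 regions its median was 2.08, 2.04 and 2.00 in control lists 1 to 3, with ranges of 1.85 to 2.74, 1.72 to 3.23 and 1.75 to 2.76.

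**Figure D1:**
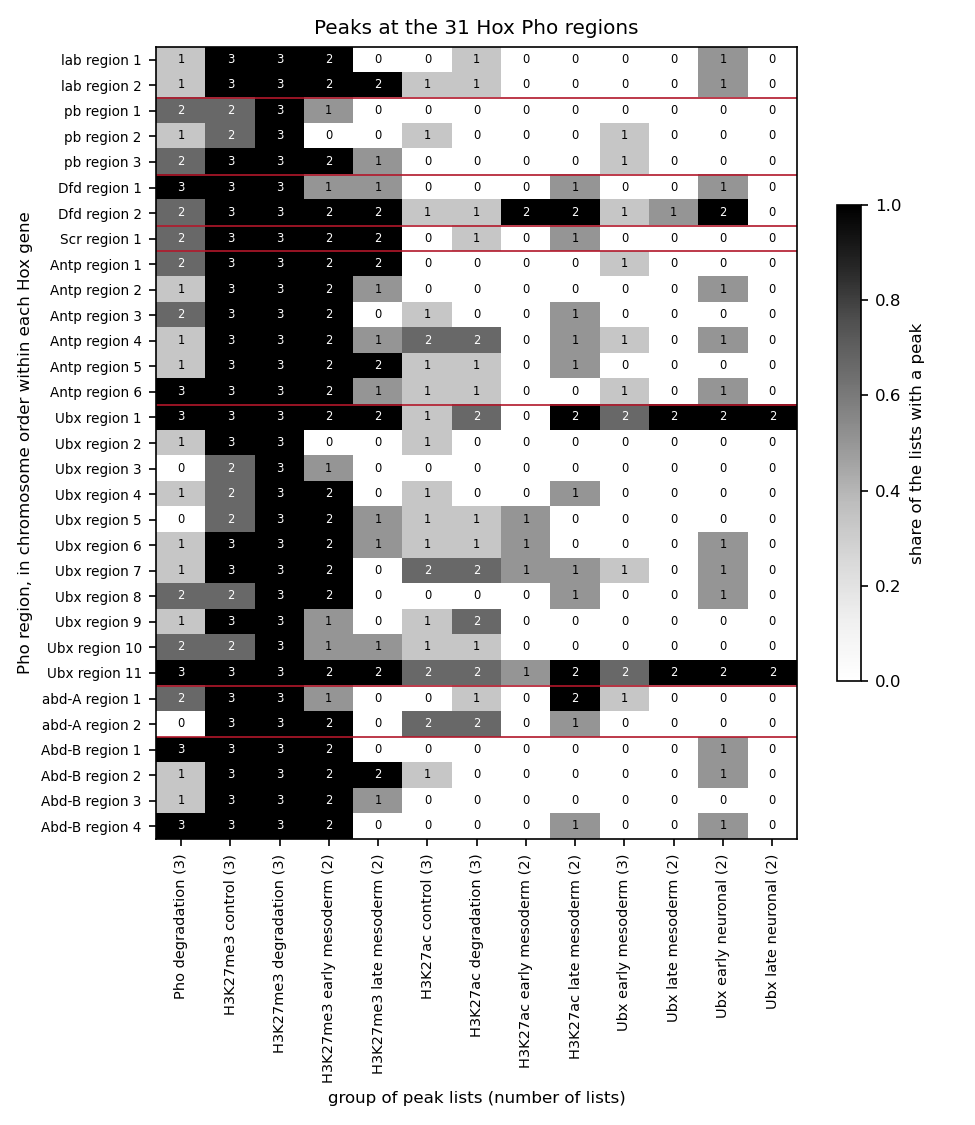
Peaks at the 31 Hox Pho regions in H3K27me3 chromatin, one row for each region and one column for each group of lists. The number in a cell, and its shade as a share, is how many lists of the group had a peak at the region; all 31 rows have H3K27me3 in 3 of 3 degradation lists, and the rows Ubx region 1 and Ubx region 11 are dark in nearly every column.

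The genes with most regions were of 2 kinds. Myo81F (25 of its 127 shared Pho regions), Pzl (9 of 68), lovit (12 of 52) and CG17684 (9 of 28) have gene regions of 398 to 1968 kb, and the Y-linked Ppr-Y, WDY and kl-3 held 14, 10 and 10. At kl-3, which encodes a dynein chain of the sperm tail, none of the 10 was under 50% repeat. At Ptp61F, a tyrosine phosphatase gene, 14 of 19 shared Pho regions were in H3K27me3 chromatin, whereas at Ubx and MSAmiP all 11 of 11 were. Over all genes, the median gene region was 4.16 kb and that of genes holding a region was 10.4 kb, so long genes had more room for one.

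Developmental regulators beyond the Hox genes also held regions in H3K27me3 chromatin, and most of their shared Pho regions were of this kind. Of the Pax and retinal determination genes, 8 of 10 held one, and all 13 of their shared Pho regions qualified. These included 5 at so, an eye-specifying homeobox gene, and 2 at eyg. Among GATA and gut regulators 7 of 10 genes held one, with 5 at dve and 3 of 6 at ush, the partner of the GATA factor pnr. Limb and tracheal regulators held one in 8 of 16 genes, including 4 at trh, the tracheal selector, and 3 each at Dll and vg. NK and ladybird homeobox genes held one in 5 of 11, T-box genes in 3 of 8, segmentation regulators in 7 of 18, Iroquois and Wnt genes in 4 of 9, and neuronal and glial regulators in 9 of 22. In the segmentation list, 17 of 18 shared Pho regions were in H3K27me3 chromatin, with 5 at inv, 4 at cad and 3 at Kr.

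In the tissue studied here, the muscle and mesoderm regulators held a region in 7 of 15 genes, and 24 of their 29 shared Pho regions were in H3K27me3 chromatin. Ubx, which is in this list too, contributed 11 of the 24. At twi, the mesoderm-determining factor whose driver also tags the nuclei, 3 of 7 qualified. The single shared Pho region at Mef2, the muscle differentiation factor, did not. The genes of differentiated muscle were different in number, with 4 of 23 genes and 7 of 46 shared Pho regions. There 4 of the 7 fell within the 396 kb gene region of kirre, an adhesion protein of fusing muscle founder cells. All 4 lie at w and CG32795, which are inside that span, and are described further on. None of the 10 shared Pho regions at sns, the partner of kirre, or the 8 at Msp300 were in H3K27me3 chromatin. Neuronal differentiation genes held one in 4 of 14. Of the Polycomb group genes only Psc (1 of 1) and jing (7 of 9) held one. No Trithorax group gene (0 of 15) and no gene for a cytoplasmic ribosomal protein (0 of 20) did, and these lists had 8 and 6 shared Pho regions. The chemoreceptor genes held one in 1 of 20. Over all genes the share was 4.96%, and counts this small are too few to set these 3 lists apart from it. For all shared Pho regions, the share in H3K27me3 chromatin was 19.6%.

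**Figure D2:**
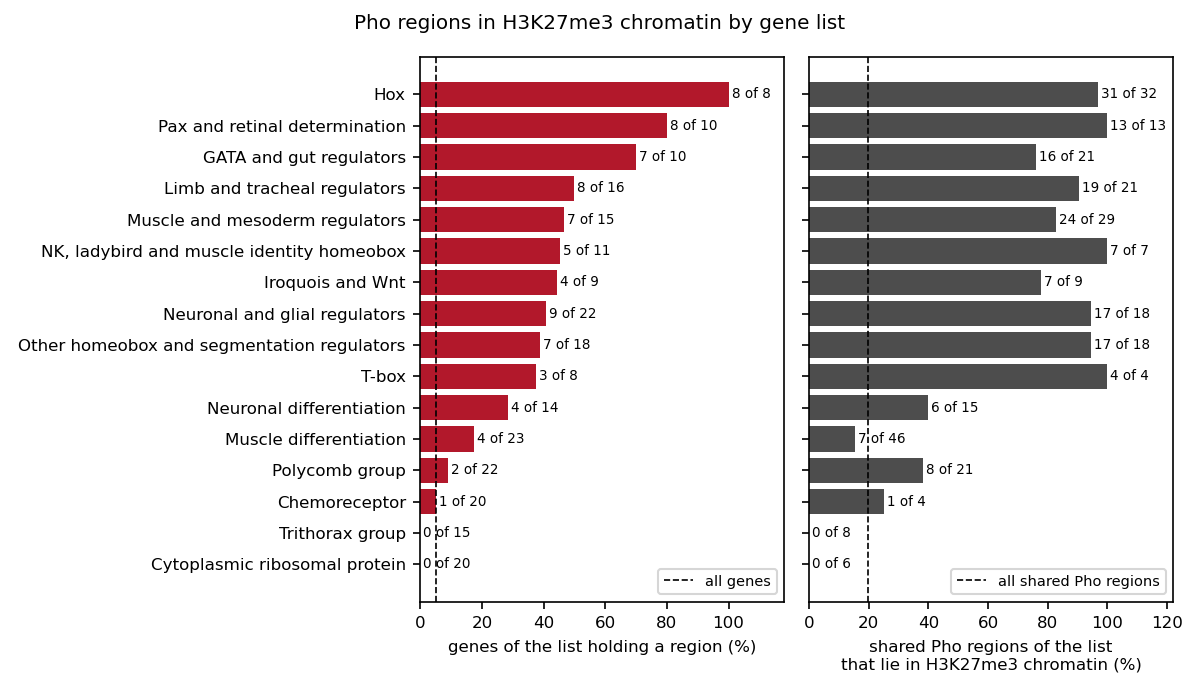
Left, percent of the genes of each list that hold a Pho region in H3K27me3 chromatin, with the count beside each bar and the value over all genes (4.96%) as a dashed line. Right, percent of the shared Pho regions at the genes of the list that lie in H3K27me3 chromatin, with 19.6% over all regions as a dashed line. The regulator lists lie above both lines, as do the Polycomb group and neuronal differentiation lists. Of the 8 Polycomb group regions, 7 are at jing. The muscle differentiation list is above the left line only (17.4%). The chemoreceptor list is near the left line (5%), and its right bar rests on 1 of 4 regions. The Trithorax group and ribosomal protein lists have none, among 15 and 20 genes, which is too few to set them apart from the value over all genes.

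Regions were ranked by the mean percentile of their Pho fold within the 3 control lists, leaving out repeat-masked ones. The highest lay 23 bp from the TSS of eve, a pair-rule homeobox gene, with folds of 2.23, 3.23 and 2.95 in control lists 1 to 3. In degradation lists 2 and 3 its folds were 1.91 and 1.68, and list 1 had no peak there. The Ubx coding exon region had 2.59, 2.20 and 2.47 in the control lists and 2.08, 2.10 and 2.14 in the degradation lists. The Dfd region near the TSS had 2.74, 2.13 and 2.36 and then 2.11, 2.64 and 1.87. Control and degradation values overlapped at Dfd and did not at the Ubx exon. These regions were named for their high control folds, so lower degradation folds are built in by the choice, and folds are not scaled between lists. No test was made.

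The intergenic region between Ubx and abd-A had folds of 2.35, 2.13 and 2.51 in the control lists and 1.89, 2.40 and 1.99 in the degradation lists. The region 86 bp from the TSS of vg, which encodes a wing and muscle cofactor, had 2.38, 2.12 and 2.38 and then 1.99, 1.92 and 1.98, which did not overlap. At Abd-B region 1, counted along the chromosome, the values were 2.63, 2.06 and 2.58 in the control lists and 2.52, 2.46 and 3.11 in the degradation lists. Abd-B region 4 had 2.20, 2.12 and 2.19, followed by 1.90, 3.04 and 2.36. Both Abd-B regions thus had Pho peaks in all 6 lists with overlapping folds. The remaining top-ranked regions lay nearest to CG32795, Rev1, CG34260, Wdr62 and Sgs5bis. Those near CG34260 (2.91, 2.15 and 2.35) and Sgs5bis (2.54, 2.49 and 2.04) were 20 and 19 bp wide and had no Pho peak in any degradation list.

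Some regions had peaks in nearly every list of every antibody. The first and last of the 11 Ubx regions are in the gene's coding exons, and they had peaks in 29 and 31 of 35 lists, including 8 of 9 Ubx lists each. The other 9 Ubx regions, all in introns, had peaks in 9 to 20 lists and in at most 2 Ubx lists. At w, the eye colour gene that also serves as a marker in many fly transgenes, and its neighbour CG32795, 4 regions had peaks in 31 to 34 lists. Pho folds at the w region were 1.72, 7.46 and 12.3 in control lists 1 to 3, and 1.74 and 1.87 in degradation lists 2 and 3. Control lists 2 and 3 stood apart from control list 1 there. The region 60 bp from the TSS of twi had peaks in 25 of 35 lists, including 7 of 9 Ubx lists, with Pho folds of 1.78, 1.89 and 1.81 in the control lists. Whether transgene copies of these sequences add to the peaks was not tested.

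In the libraries without GFP-Ubx, which the rule did not use, the regions were again covered by H3K27me3 far more often than the others. The early lists had peaks at 49.2% and 36.6% of them, against 10.2% and 3.24% of the other shared Pho regions. The late lists had peaks at 34.5% and 17.7%, against 10.3% and 1.72%. A peak in both early lists was found at 509 regions (29.2%), beside 6.59% of all shared Pho regions, and in both late lists at 245 (14.1%), beside 3.46%. The antibody and tissue are those of the control lists that chose the regions, so the enrichment was in part built in. At the Hox genes, 23 of the 31 regions had H3K27me3 in both early lists and 8 in both late lists.

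The early and late libraries were compared with limma on the covered share of 1 kb windows, with lists trimmed to equal covered length. No region passed an adjusted p of 0.05 among 921 tested (0% called), of which 557 were regions in H3K27me3 chromatin; the lowest adjusted p was 0.516. At an unadjusted p of 0.05, 14 of these 557 had more cover late and 36 less. Over all 921 tested, 23 (2.5%) had more and 36 (3.91%) less. Early and late libraries did not overlap at 93 of all 921 windows that were higher late (10.1%) and at 61 that were lower (6.62%). Of the 557, these were 50 higher and 59 lower. On the lists as deposited, which differ in length, libraries did not overlap at 19 higher and 473 lower of 1448 windows in H3K27me3 chromatin. Over all 5115 tested there, these counts were 92 and 629. In the trimmed lists, windows at cad, at hbn and at 2 regions of MSAmiP had 100% cover in both early libraries and 0% in both late libraries. The window near TfAP-2 had 100% in both early libraries and 0% and 5% late. All 5 of these had an adjusted p of 0.516 by limma. The 5 with the largest rise were on X and Y with 4 nearest to ATbp and 1 to ARY, and 4 of the 5 were wholly repeat-masked. The count of calls was unstable. It was 26 with the Pho region itself as the window, 252 without late library 2 (213 higher late and 39 lower) and 217 without late library 3 (137 higher and 80 lower), where the remaining late library was assumed to vary like the early ones.

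H3K27ac peaks were found at a part of the same regions, and this differed widely between libraries. In the control libraries 14.6%, 57.5% and 40.7% of the 1743 regions overlapped an H3K27ac peak, and in the degradation libraries 15.4%, 35.0% and 53.3%. The groups overlapped. The mean was 37.6% ± 21.6 (SD, n = 3) in controls and 34.6% ± 18.9 (SD, n = 3) in degradation, a difference of -3.06 points (exact permutation test, two-sided, p = 0.8; the smallest p possible is 0.1). A peak in all 3 control lists was found at 112 regions (6.43%), beside 4.28% of all shared Pho regions, and in all 3 degradation lists at 133 (7.63%), beside 6.45%. Among regions under 50% repeat the share in all 3 control lists was 3.67%, against 3.85% of the others. Each list comes from many nuclei, so peaks of both marks at 1 region do not place both marks in the same nucleus. Why peaks of both marks overlapped was not tested.

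With trimmed lists and limma, no shared Pho region passed an adjusted p of 0.05 for H3K27ac between control and degradation (0% of 6902 tested, 1411 of them in H3K27me3 chromatin), and the lowest adjusted p was 0.856. At an unadjusted p of 0.05, 2 of the 1411 were higher after degradation and 0 lower. Over all 6902 tested, 4 (0.058%) were higher and 1 (0.0145%) lower. Libraries did not overlap at 21 of all 6902 windows that were higher after degradation (0.304%) and at 19 that were lower (0.275%). Of the 1411, these were 4 higher and 0 lower. The window at so had 11.4%, 0% and 0% cover in the control libraries and 31.8%, 94.6% and 28.5% in the degradation libraries. At Traf4, a signalling adaptor gene, the values were 0%, 0% and 11% and then 11.9%, 100% and 31.3%. The window at E(spl)mgamma-HLH, a Notch target gene, had 0% in all 3 control libraries and 7.5%, 69.2% and 8.5% after degradation. The last window was a repeat-masked one nearest to ATbp. Degradation library 2 or 3 gave the highest value in each case, and all had an adjusted p of 0.856 by limma. In the 1 kb windows, replicate 3 stood apart in both groups, with mean cover of the 1743 windows at 24.3% in control and 30.5% in degradation, against 3.25% to 5.84% in the other 4 libraries.

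In the libraries without GFP-Ubx, H3K27ac peaks were at 16.2% and 1.55% of the regions early and 43.9% and 10.8% late. Both early lists marked 24 regions (1.38%, beside 3.9% of all shared Pho regions) and both late lists 174 (9.98%, beside 4.19%). Among regions under 50% repeat these counts were 12 and 53 of 1470. With lists trimmed to 1.01 Mb, the length of late list 3, no window passed an adjusted p of 0.05 in limma (0% of 995 tested). The lowest adjusted p by limma was 0.499, and 249 of the 995 were in H3K27me3 chromatin. At an unadjusted p of 0.05, 49 of the 249 were higher late and 0 lower. Over all 995 tested, 56 (5.63%) were higher and 20 (2.01%) lower. Libraries did not overlap at 111 of all 995 windows that were higher late (11.2%) and at 57 that were lower (5.73%). Of the 249, these were 85 higher and 0 lower. The 5 with the largest difference, 91.9 to 100 points, were all at least 94.0% repeat-masked, as at CG14464 on 2R and ARY on Y. Without late library 2, 174 were called higher.

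After Ubx degradation the H3K27me3 lists as deposited still had peaks at most of the regions. Degradation lists 1, 2 and 3 had peaks at 59.7%, 73.7% and 85.8% of them, and at 5.96%, 12.7% and 23.8% of the other shared Pho regions. The mean of 73.1% ± 13.1 (SD, n = 3) depends on list length, and it was 43.6% ± 12.4 (SD, n = 3) with lists trimmed to equal covered length. At least 2 lists had a peak at 1280 regions (73.4%), beside 21.3% of all shared Pho regions, and no list did at 94. Of the 513 regions marked in all 3 control lists, 503 (98.1%) were marked in at least 2 degradation lists, against 777 of the 1230 marked in 2 (63.2%). All 31 Hox regions were marked in all 3 degradation lists. Since the regions were chosen for H3K27me3 in the control lists, a lower share in the degradation lists is built in by the choice, and no test was made.

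In the lists as deposited, Pho peaks were found at fewer of the regions than H3K27me3 peaks in each degradation list. With lists trimmed to equal covered length the order of the mean shares was reversed, at 48.3% for Pho and 43.6% for H3K27me3. The order thus depends on list length, and the regions were chosen by different rules for Pho and H3K27me3. As deposited, degradation lists 1, 2 and 3 had Pho peaks at 984, 894 and 895 of the 1743 regions (56.5%, 51.3% and 51.3%). The shares of the other shared Pho regions were 42.4%, 37.7% and 40.01%. All 3 lists had a peak at 452 regions (25.9%), beside 13.5% of all shared Pho regions. No list had one at 329 (18.9%), beside 24.5%. Both sets were chosen for Pho in all 3 control lists, so an incomplete overlap is built in on both sides. The choice was also made in reverse, from the 9747 regions shared by the 3 degradation lists, of which 2191 (22.5%) lay in H3K27me3 peaks of at least 2 degradation lists. Of those, 410 (18.7%) had a Pho peak in all 3 control lists and 413 (18.8%) in none, against 10.1% and 21.2% of the other regions shared by the degradation lists. The 2 selections shared 332 of the 1743 regions (19.05%), which overlapped 303 of the 2191 (13.8%).

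Width and repeats moved with this overlap. Regions with Pho in all 3 degradation lists had a median width of 242 bp, and those with Pho in none 74 bp. Among regions under 50% repeat, 270 of 1470 (18.4%) had Pho in all 3 degradation lists, against 9.64% of the others. When the others were weighted to the same 4 width classes, a choice made after seeing the data, their share was 11.2%. In the class of 200 bp or more, 131 of 368 regions (35.6%) kept a Pho peak in all 3 lists, against 20.3% of the others, and in the class under 50 bp the shares were 8.77% and 4.87%. In all 4 classes the regions in H3K27me3 chromatin had the higher share.

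**Figure D3:**
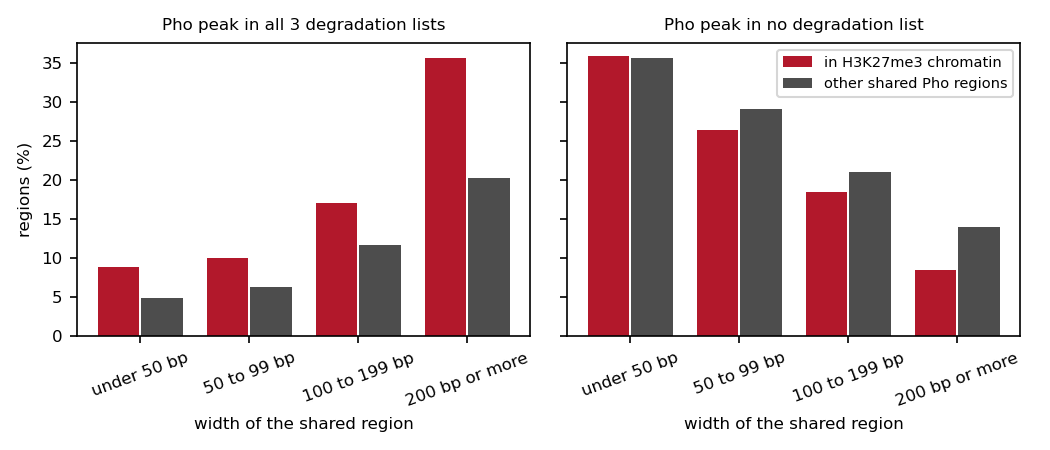
Percent of shared Pho regions under 50% repeat with a Pho peak in all 3 degradation lists (left) or in none (right), in 4 classes of region width, for regions in H3K27me3 chromatin and the others. The left bars rise with width in both sets, from 8.77% to 35.6% and from 4.87% to 20.3%.

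At the Hox genes 6 of the 31 regions had Pho in all 3 degradation lists, 28 in at least 1 and 3 in none. Pho was in all 3 at 25.9% of the 1743 and 13.5% of all shared Pho regions, and in none at 18.9% and 24.5%. The 6 were the Dfd region near the TSS, Antp region 6, both Ubx coding exons and Abd-B regions 1 and 4. The 3 without were Ubx regions 3 and 5, 11 and 31 bp wide, and abd-A region 2, 101 bp wide. Other regions with high control percentiles and no Pho peak after degradation lay at Ptp61F, with control folds of 2.27, 2.23 and 2.17, and near bab1, a gene of leg and ovary patterning, with 2.47, 2.31 and 2.04. Both kept H3K27me3 in 3 of 3 degradation lists. Of the 1743 regions, 243 (13.9%) had H3K27me3 in at least 2 degradation lists and Pho in none. Another 350 (20.1%) had H3K27me3 in at least 2 and Pho in all 3, and 20 (1.15%) had neither in any list. These joint counts are not given for the other shared Pho regions, so they cannot be called particular to this set.

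Ubx peaks were more frequent at Pho regions in H3K27me3 chromatin than at the others in all 9 Ubx lists. In early mesoderm lists R, R2 and S, 9.58%, 40.8% and 14.1% of the regions overlapped a Ubx peak, against 1.33%, 22.4% and 4.4% of the others. In late mesoderm lists R and S the shares were 13.4% and 14.3% against 4.84% and 5.62%. Early neuronal lists R and S gave 49.9% and 58.3% against 24.4% and 38.6%, and late neuronal lists R and S gave 6.08% and 7.46% against 0.698% and 0.782%. The ratio of the shares ran from 1.51 in early neuronal list S to 9.54 in late neuronal list S, and the lists differed in length from 921 to 66450 peaks. Without repeat-masked regions the ratio ran from 1.43 to 5.96, and with the others also weighted to the same widths from 1.33 to 5.39. It was highest in the 2 shortest lists, both late neuronal.

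**Figure D4:**
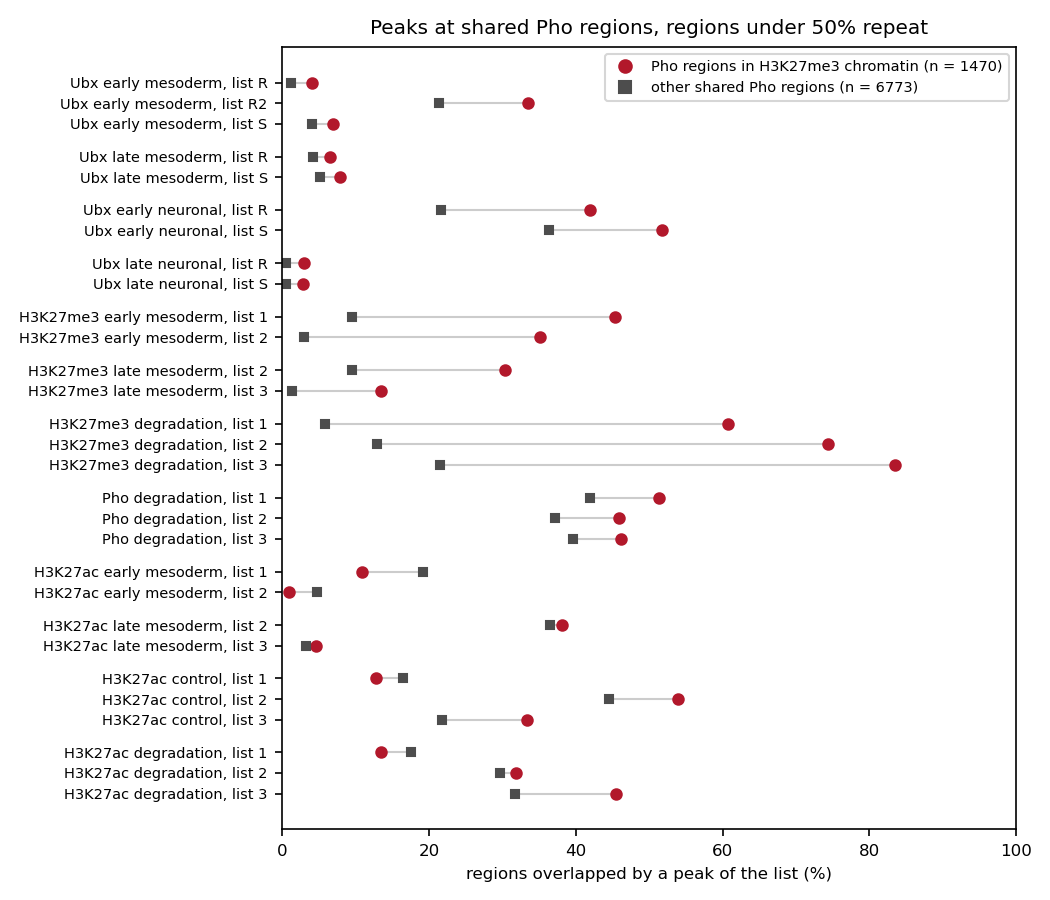
Percent of shared Pho regions under 50% repeat that overlap a peak of each list, for regions in H3K27me3 chromatin (circles) and the others (squares). The circles lie to the right of the squares in all 9 Ubx lists, all H3K27me3 lists shown and all 3 Pho degradation lists, and to the left in both early and in 1 control and 1 degradation H3K27ac list.

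No difference in the log2 ratio between tissues or between stages passed an exact permutation test. It was 1.64 ± 0.74 (SD, n = 5) in mesoderm and 2.00 ± 1.38 (SD, n = 4) in neuronal nuclei, a difference of -0.36 (exact permutation test, two-sided, p = 0.683, adjusted over 2 tests 0.683). It was 2.30 ± 1.03 (SD, n = 4) in late and 1.41 ± 0.90 (SD, n = 5) in early lists, a difference of 0.89 (exact permutation test, two-sided, p = 0.159, adjusted 0.317). The smallest p possible is 0.00794. The tissues overlapped in range, as did the stages. The stage test pools both tissues. In neuronal nuclei the log2 ratio was 1.03 and 0.60 in the early lists and 3.12 and 3.25 in the late ones, which did not overlap. In mesoderm the late values of 1.46 and 1.35 lay inside the early range of 0.87 to 2.85. Whether the stage difference itself differs between tissues was not tested.

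Both late mesoderm lists had a Ubx peak at 180 regions (10.3%), beside 3.03% of all shared Pho regions, but 130 of the 180 were repeat-masked. The 50 that were not made up 3.4% of 1470, against 0.65% of the comparable others. Of the 50, 28 were intergenic on X with ATbp as the nearest gene, at least 99324 bp away, and these regions, up to 2121 bp wide, had peaks in 22 to 34 of the 35 lists. Among the rest were both Ubx coding exons, w and CG32795, the region 60 bp from the TSS of twi, and a 71 bp region 12024 bp from the nearest TSS at esg, a zinc finger gene of imaginal and tracheal cells. The esg region had Ubx peaks in both late mesoderm lists, no early mesoderm list and 1 of 4 neuronal lists. Its Pho folds were 2.46, 2.03 and 2.66 in the control lists and 2.40, 2.94 and 2.32 in the degradation lists, and it had H3K27me3 in all 3 degradation lists. A region near mIF2 on 3R also had Ubx in both late mesoderm lists, with 1 of 3 early mesoderm lists and no neuronal list.

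In early mesoderm all 3 Ubx lists had a peak at 135 regions (7.75%, beside 1.71% of all shared Pho regions), in early neuronal nuclei both lists at 763 (43.8%, beside 22.1%) and in late neuronal nuclei both at 78 (4.48%, beside 0.988%). Over the 9 lists, 63 regions had a Ubx peak in every list, of which 19 were under 50% repeat, and 424 had none in any list. These were 3.61% and 24.3% of the 1743, against 0.0558% and 39.4% of the other shared Pho regions. Of the 31 Hox regions, 12 had a Ubx peak in no list and 13 in 1 list, and 1 list only had one at 21.3% of the 1743 and 33.1% of the others. A Ubx peak in both late mesoderm lists was found at 2 of the 31, the Ubx coding exons.

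In windows of equal width, the Pho core motif was about as frequent at these regions as at the other shared Pho regions. In windows of 200 bp at the centre, GCCAT on either strand was found in 43.6% of the 1743 (95% Wilson interval 41.3 to 45.9) and 43.1% of the others (41.9 to 44.2). In windows 1 kb to either side it was found in 37.7% and 35.7%, and in 35.1% of all 200 bp tiles of the chromosomes. The extended form GCCATNTT, which contains GCCAT, was in 4.3% of centres, 3.82% of flanks and 4.11% of tiles. The centres were richer in G and C (median 52.5%) than the flanks (45.5%), and the part of base composition in these shares was not tested. At the Hox genes 13 of 31 regions held GCCAT within the region and 8 held it more than 1 time. Within whole regions, which differ in width, GCCAT was in 33.4% of the 1743 and 24.9% of the others. The share with more than 1 match is not given for these sets.

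GAGAG, the repeat bound by GAGA factor, which is found at many Polycomb response elements, was in 29.3% (27.2 to 31.5) of centres, against 25.02% (24.0 to 26.0) at the other shared Pho regions, 24.0% of flanks and 21.5% of tiles. Among regions under 50% repeat the intervals overlapped, with 26.7% (24.5 to 29.1) against 24.6% (23.6 to 25.7) of the others. GTGTGT was in 10.0% of centres, 10.7% of flanks and 12.3% of tiles. TAATTA, a homeodomain core, was in 3.96% of centres, 10.2% of flanks and 12.4% of tiles, and in 4.33% of centres of the other regions. Regions under 50% repeat with Pho in all 3 degradation lists held GCCAT in 44.8% (39.0 to 50.8) of centres, and those with Pho in none in 42.6% (37.3 to 48.2). A match is a run of letters, and its presence or absence is not a measure of binding.

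**Figure D5:**
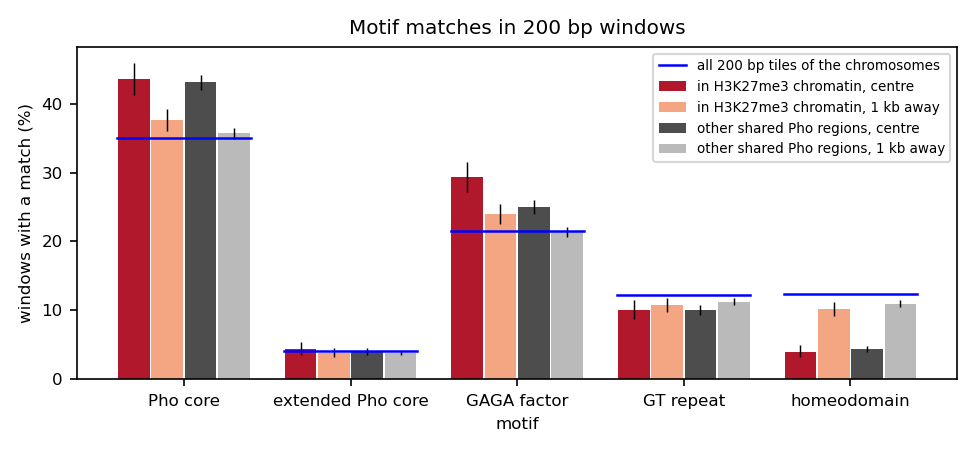
Percent of 200 bp windows holding a motif on either strand, at the centres of Pho regions in H3K27me3 chromatin and of the other shared Pho regions and 1 kb to either side, with 95% Wilson intervals; blue lines give the share of all 200 bp tiles. The 2 sets have near-equal bars for the Pho core (43.6% and 43.1%), and the homeodomain bars at both centres are below those at the flanks.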

How the data were processed

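Per the submitters' processing notes, the tools were Bowtie, FastQC and MACS2, and the build was dm6; versions, parameters and the use of inputs are not given in the sources used here. The authors deposited 1 broad-peak list for each of 35 immunoprecipitates, with a score, a fold (a ratio over the list's own background, not scaled between lists) and −log10 p and q for each peak. Peaks on 7 chromosomes were used, and 5 combined Ubx lists and the inputs were not used here. Ensembl gene models (BDGP6.54) and the soft-masked RefSeq sequence of the same assembly gave positions and repeats.

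The regions and gene lists were chosen with earlier results of these data known. Named were the Hox genes, the 10 genes with most regions, the 10 regions with the highest control Pho percentile, up to 5 windows per direction in each limma comparison, and up to 10 regions each by Ubx lists and by loss of Pho. Windows of 1 kb were compared with limma 3.58.1 in R 4.3.3 (trended variance) on the arcsine square root of covered share, with Benjamini-Hochberg adjustment, after lists were trimmed by score to equal covered length. The procedure was tested on simulated data with a spread fixed in advance and not taken from these libraries. That test therefore does not give its power here. Control and degradation H3K27ac libraries of the same number deviated together (r = 0.369, 0.508 and 0.587), so the numbers pair these libraries. The main H3K27ac tests were unpaired, and a fit with the replicate block was an alternative. Of 235 names in the gene lists, 234 matched. Exact permutation tests used scipy 1.17.1 under Python 3.11.15. The sequences of some regions are not reported here.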

Additional observations from a re-analysis of the deposited data

How the results depend on the processing

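The number of regions was 4476 with H3K27me3 in 1 list, 513 with it in all 3, 1033 with a width of 100 bp or more, and 303 from the better-scored 50% of each list. With 1 of the 6 control lists left out it ran from 586 to 4583. The mean share with a Pho peak in a degradation list was 53.0%. It was 43.2% when 50% of the region had to overlap, 36.0% with the better-scored 50% of each list, 48.3% with lists of equal covered length and 47.8% without repeat-masked regions. Leaving out 1 list gave 51.3% to 53.9%. For H3K27me3 this share was 73.1%, and 43.6% with lists of equal covered length, or 66.7% to 79.8% without 1 list.

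For H3K27me3 between stages, limma called 1 region on the lists as deposited, 26 with the region as window (22 lower), 15 with the better-scored 50% (all lower), 13 with cover in at least 2 libraries (12 higher) and 0 to 252 without 1 library. For H3K27ac between stages it called 15 with the region as window (all higher) and 0 to 174 without 1 library. For H3K27ac after degradation it called 0 under all 12 alternatives, replicate block included (lowest adjusted p 0.622). The difference in the share with H3K27ac turned to 1.68 points with equal covered length and 0.956 with the better-scored 50%, and ran from -14.6 to 6.89 without 1 library. With the replicate block its sign-flip p was 1 (exact; the smallest is 0.25). The Ubx difference between tissues ran from -0.83 to 0.058 without 1 list, above 0 without either late neuronal list, and that between stages from 0.57 to 1.26. No Ubx alternative passed 0.05. A replicate block over the letters R and S, chosen after seeing the data and not shown to pair samples, gave -0.17 and 0.76 (exact sign-flip p = 0.875 and 0.5). GCCAT was in 33.4% of whole regions and 66.8% of 400 bp windows. The cause of these changes was not tested. No paired analysis was possible for the stages of the histone marks because those groups share only 1 replicate number.

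Read depth is unknown, short lists miss weak peaks, and a missing peak is not an absent protein.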

Other observations

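The share of shared Pho regions with Pho in all 3 degradation lists was 7.47% where no H3K27me3 control list had a peak, 15.3% with 1 list, 26.1% with 2 and 25.5% with 3. Counted in bases, those covered by all 3 degradation lists at once made up 42.9% of the bases of the Pho regions in H3K27me3 chromatin. For the other shared Pho regions this was 7.39%. Repeat-masked regions made up 2.69%, 9.99%, 17.9% and 10.3% of the regions with 0, 1, 2 and 3 lists, and their part in both measures was not tested.

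Among genes outside the lists, dsx, the sex determination gene, held 3 regions and dpp, a BMP ligand, 3 of its 4 shared Pho regions. Sox100B, a gonad regulator, held 3 of 3, and bnl, the tracheal FGF ligand, 3 of 5. These genes were picked after their values were seen.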
